A study of Mus musculus with 3 samples.

Results

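The annexin and S100 genes described here are 10 genes, 5 annexins (Anxa1, Anxa2, Anxa3, Anxa4 and Anxa5) and 5 S100 genes (S100a4, S100a6, S100a9, S100a10 and S100a11), chosen by gene symbol. All 10 are among the 14811 genes in the deposited table. The table holds macrophages sorted by flow cytometry from the kidneys of 3 mice of the C57BL6/J strain, 1 RNA-seq library for each mouse. All 3 animals carried the same treatment, an intravenous injection of PBS 1 h before the kidneys were removed. There is no second group. The sources used here do not state the surface markers of the sort or the age of the animals. What can be compared is therefore the level of one gene with another in the same mouse, and how far the 3 mice differ. The sample titles number the macrophage samples from 1 to 3, and each is taken here as a separate animal.

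Annexins are soluble proteins that attach to negatively charged membrane lipids when calcium rises, and they take part in membrane repair, vesicle traffic and the handling of dying cells. S100 proteins are small calcium sensors with a pair of EF-hand loops, most of which act as dimers. The families meet physically, because several S100 dimers bridge annexin molecules on a membrane. S100a10 with Anxa2 and S100a11 with Anxa1 are the textbook complexes. In myeloid cells, S100a9 is known as a major cytosolic protein of neutrophils and monocytes, and S100a4 and S100a6 as genes of monocytes and motile cells.

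Values are normalised reads, that is the deposited scaled count after removal of an added 1. The libraries held 50646558 to 56718534 reads over the listed genes, and 1 read was worth 0.555 to 0.806 normalised reads. A gene at 0 is compatible with up to 3 reads, which is 2.42, 1.66 and 2.11 normalised reads in mice 1, 2 and 3 (counting error only). Spread between the libraries was wide for most genes: the median SD of log2(value + 1) was 2.55 over the 11603 genes with a mean of 10 or more. Macrophage markers were present as labelled: 8 of 8 lay above the median gene of the library in 3 of 3 mice, as did 28.8% of all tested genes, and their summed level was 207331, 108195 and 150162 normalised reads in mice 1, 2 and 3. Kidney tubule markers summed to 42303, 202178 and 18565, which in mouse 2 was more than the macrophage markers. Most of this tubule sum was Kap alone (35490, 172061 and 13511), and without Kap it was below the macrophage sum in mouse 2. In RNA from a sorted pool, fewer cells of a type and less RNA per cell cannot be told apart.

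Anxa5 was the highest member in every mouse, and with S100a11, S100a10, Anxa3 and Anxa4 it formed a set of 5 genes that were plainly present in all 3 libraries. Anxa2, S100a6, S100a4 and Anxa1 were each carried mainly by 1 or 2 of the 3 libraries, and S100a9 had no read in any. This grouping was made after the values were seen. The 5 annexins together took 0.108% ± 0.0344 of the reads (SD, n = 3) and the 5 S100 genes 0.00755% ± 0.00169, although S100 transcripts are short and collect fewer reads per molecule. Levels are therefore compared between genes as normalised reads per kb of exon.

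**Figure D1:**
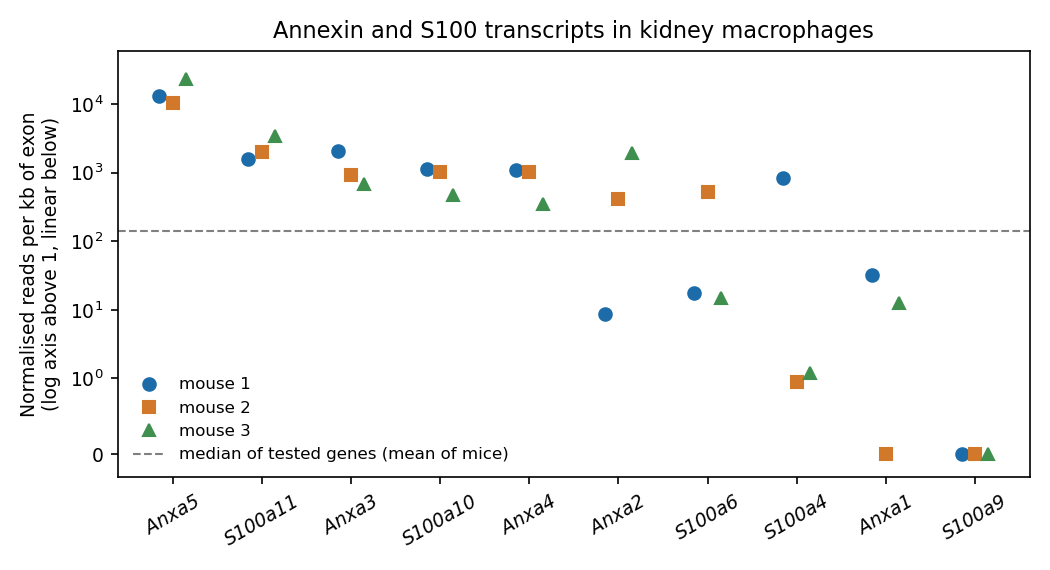
Level of each member in each mouse, as normalised reads per kb of exon (vertical axis, logarithmic above 1 and linear below), ordered by the mean of log2(value + 1) per kb. Points are single libraries and the dashed line is the median of 11603 genes. The 5 genes from Anxa5 to Anxa4 have all 3 points above the line, and S100a9 has all 3 at 0.

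Anxa5, which binds phosphatidylserine on the surface of dying cells and is widely used as a stain for them, was at 23059, 18483 and 41251 normalised reads in mice 1, 2 and 3. It ranked 133 of 14811 genes by mean and made up 69.5% ± 7.62 of the annexin members' reads (SD, n = 3). Its highest and lowest mouse differed by 2.23-fold. Per kb of exon its level was 12977, 10401 and 23214.

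Anxa3, an annexin known from neutrophil granules and from endothelium, was at 7433, 3360 and 2516 normalised reads in mice 1, 2 and 3. Anxa4, an annexin common in epithelia, was at 5149, 4725 and 1605. Both were highest in mouse 1 and lowest in mouse 3, with 2.95-fold and 3.21-fold between those mice. Anxa4 is also known from tubule epithelium, and the tubule marker sum was, like Anxa4, lowest in mouse 3, while it was highest in mouse 2. The part of tubule RNA in the Anxa4 value was not tested.

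S100a11, the S100 partner of Anxa1, was the S100 member with the highest mean level per kb. It was at 818, 1017 and 1747 normalised reads in mice 1, 2 and 3, a 2.14-fold range. S100a10, the partner of Anxa2, which has lost the ability to bind calcium and is held in its open form, was at 1380, 1255 and 574, a 2.40-fold range. In the RefSeq gene order (GRCm38.p6) these S100 genes are direct neighbours. They were highest in different mice, S100a11 in mouse 3 and S100a10 in mouse 1. An annotated processed copy of S100a11, S100a11-ps, and a pseudogene of Anxa2 exist in the mouse genome, so reads of S100a11 and Anxa2 could have been lost to or shared with such copies in the authors' counting.

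Each gene was tested against the median gene of its own library with limma, per kb of exon, over all 11603 tested genes. After Benjamini-Hochberg adjustment, 0 genes were called above the median (0%) and 0 below it (0%), members included. At an unadjusted p under 0.05, 2186 genes (18.8%) lay above and 1990 (17.2%) below, and 5 of the 9 members that could be tested lay above and 0 below. These 5 were Anxa5 (log2 difference 7.5 ± 0.88 SE, adjusted p = 0.0665), S100a11 (4.78 ± 0.87, adjusted p = 0.0681), Anxa3 (3.75 ± 0.90, adjusted p = 0.0777), S100a10 (3.35 ± 0.87, adjusted p = 0.0831) and Anxa4 (3.17 ± 0.90, adjusted p = 0.0928), each above the median in 3 of 3 mice. When limma was allowed to take the spread typical of a gene's level, the same 5 members passed, beside 22.7% of all genes above and 4.32% below. In that setting a gene's own spread between the mice did not enter the test. Of the 9 tested members, 5 lay above the library median in 3 of 3 mice, as did 28.8% of all tested genes, and 1, Anxa1, lay below it in 3 of 3, as did 25.6%. The median log2 difference was 3.17 over the 9 members and -0.76 over all tested genes.

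The order of the members was set by these same values. Between neighbours, the mean log2 ratio exceeded its SD only at the top of the order. Anxa5 exceeded S100a11, next in the order, by 2.72 ± 0.32 log2 units per kb (SD, n = 3), in 3 of 3 mice (exact sign-flip permutation test, two-sided, p = 0.25, the smallest that 3 mice can give). For the other 8 neighbouring pairs the mean log2 ratio was smaller than its SD. S100a11 and Anxa3 differed by 1.02 ± 1.33, Anxa3 and S100a10 by 0.40 ± 0.52, and S100a10 and Anxa4 by 0.17 ± 0.25. S100a10 was above Anxa4 in 3 of 3 mice too, with the same sign-flip p of 0.25, so that test does not set the top pair apart. Further apart in the order, Anxa5, S100a11, Anxa3, S100a10 and Anxa4 each stood above S100a6, S100a4 and Anxa1 per kb in 3 of 3 mice. Without division by exon length Anxa3 stood above S100a11 (log2 ratio of S100a11 to Anxa3 of -1.81), and it did so by 0.17 with the longest transcript as length (log2 ratio -0.17).

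Anxa2, the annexin that with S100a10 forms a cell-surface receptor for plasminogen, was at 32.3, 1541 and 7296 normalised reads in mice 1, 2 and 3. Mouse 3 was 226-fold above mouse 1. The SD of its log2 level, 4.0, was larger than that of 92.2% of the 500 genes nearest to it in level. Mouse 1 held 40 reads of the gene, so the low value there is above the floor of 3 reads. Some markers of other cells were highest in mouse 3 too, as were Anxa5 and S100a11. Ppbp, a platelet chemokine, was at 2.42, 1.11 and 1698 in mice 1, 2 and 3, while the platelet gene Itga2b and the erythroid gene Hba-a1 were at 0 in every mouse. The 4 of 6 erythroid and platelet markers in the table summed to 6362, 6797 and 6987. Most of that sum came from 1 other marker, which was highest in mouse 2 and lowest in mouse 3. Endothelial markers, 6 of 7 in the table and none at 0 in every mouse, summed to 549, 135 and 1395. Of these, only Kdr (453, 7.77 and 1345) was highest in mouse 3. The part of these cell types in the Anxa2, Anxa5 and S100a11 values was not tested.

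Anxa1, the glucocorticoid-induced annexin that signals through formyl peptide receptors, was the lowest annexin member by mean level. It was at 94.4 and 35.9 normalised reads in mice 1 and 3 and had no read in mouse 2. In mouse 1 Anxa2 was lower than Anxa1, at 32.3 normalised reads. The level of Anxa1 in mouse 1 was at least 56.7-fold higher than the floor of 3 reads in mouse 2. The mice stood in the same order for Dcn, a fibroblast gene, at 906, 0.555 and 154, while the fibroblast and mural markers Col3a1 and Acta2 were highest in mouse 2. That order also held for the sum of dendritic cell markers (3960, 1333 and 1885, 5 of 5 in the table, with Ccr7 at 0 in every mouse). Most of that sum was Clec9a (3421, 1330 and 1462), and Zbtb46 was at 0, 0 and 16.2. The macrophage and monocyte marker sums had the same order, the latter at 30830, 8984 and 12257. The part of these cells in the Anxa1 value was not tested. The spread of Anxa1 was not extreme for its level, larger than that of 43.2% of the 500 nearest genes.

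S100a4, also called fibroblast-specific protein and known from motile cells and monocytes, was at 481 normalised reads in mouse 1, and at 0.555 and 0.705 in mice 2 and 3, where it rests on 1 read each. The ratio of mouse 1 to mouse 2 was 868 (95% counting interval 155 to 34322) and that of mouse 1 to mouse 3 was 683 (122 to 27026). Monocyte markers stood high in the same library: Ly6c2, the surface antigen of classical monocytes, was at 1069, 2.77 and 0.705 in mice 1, 2 and 3, and Plac8 was at 465, 0 and 0. Of the 10 monocyte markers, 7 were in the table, 5 of these were highest in mouse 1, and Treml4 was at 0 in every mouse. Their summed level was 30830 in mouse 1, 8984 in mouse 2 and 12257 in mouse 3, most of it from Ccr2 (29145, 8939 and 12215). Fibroblast and mural markers, 5 of 6 in the table and none at 0 in every mouse, summed to 962 in mouse 1, 70.5 in mouse 2 and 200.9 in mouse 3, and Dcn made up 906 of the sum in mouse 1. Of these 5 markers, 3 were highest in mouse 1 and 2 in mouse 2 (Col3a1 and Acta2). The part of either cell type in the S100a4 value was not tested.

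S100a6, or calcyclin, a partner of several annexins, was at 719 normalised reads in mouse 2 and at 24.2 and 20.4 in mice 1 and 3, a 35.2-fold range. Kidney tubule markers were also highest in that library. Of 11 tubule markers 10 were in the table, 9 of these were highest in mouse 2, and none was at 0 in every mouse. Kap, a transcript of proximal tubule cells, led their sum with 35490, 172061 and 13511. The part of tubule RNA in the S100a6 value was not tested. The spread of S100a6 was not large for its level. The SD of its log2 level, 2.86, was below 3.74, the median SD of the genes nearest to it in level. It was larger than the SD of 28.4% of those genes.

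S100a9, the calgranulin subunit that neutrophils make in bulk, had 0 reads in every library. Against the floor of 3 reads per library, Anxa5 was at least 2799.8-fold higher per kb and S100a11 at least 345-fold higher. Its dimer partner S100a8 is not analysed here. Of 14 neutrophil markers, only Csf3r was in the table, at 19.4, 3.33 and 0 normalised reads. Of 7 lymphocyte markers, 2 were in the table, with Cd3e at 0 in every mouse and Cd3d at 0, 1.11 and 0.

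**Figure D2:**
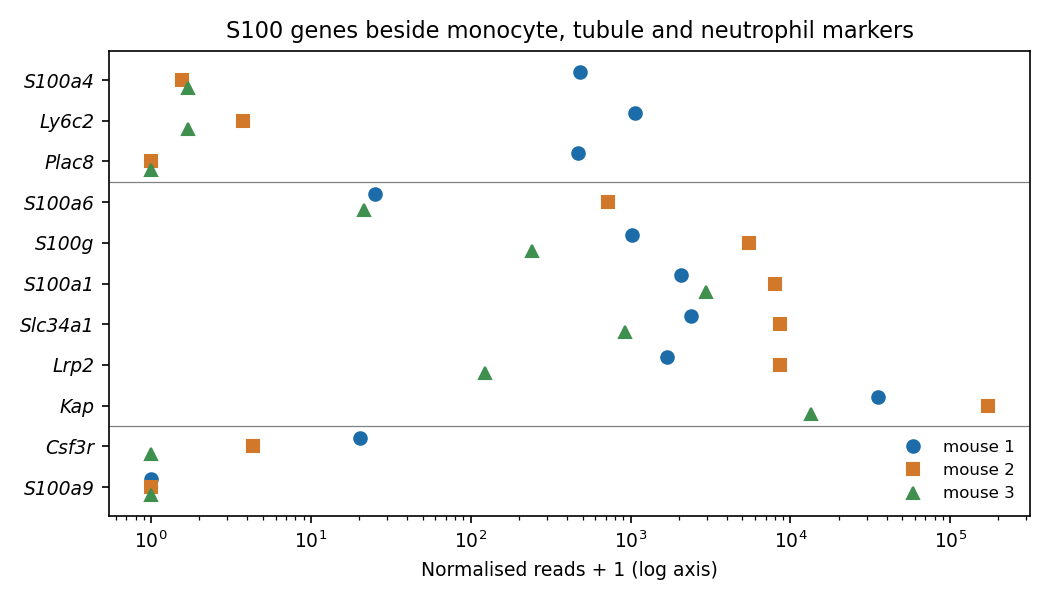
Normalised reads + 1 (horizontal axis, logarithmic) of S100a4 with monocyte markers (top), S100a6 with other S100 genes and tubule markers (middle), and S100a9 with a neutrophil marker (bottom). Each point is 1 mouse. S100a4, Ly6c2 and Plac8 are high in mouse 1 alone, and all 6 genes of the middle block are highest in mouse 2. The markers shown were picked after their values were seen. Among genes not shown, the tubule marker Umod and S100a13 were highest in mouse 3. Of the monocyte markers not shown, Ace was highest in mouse 2, and Ccr2 was high in all 3 mice.

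The highest mouse differed from gene to gene. Among the 9 members with reads, mouse 1 was highest for 5 (Anxa1, Anxa3, Anxa4, S100a4 and S100a10), mouse 3 for 3 (Anxa2, Anxa5 and S100a11) and mouse 2 for S100a6 alone. The median SD of log2(value + 1) over these 9 was 0.94, against 2.55 over all tested genes. Of the 9, 5 had a larger SD than the median of the 500 genes nearest in level.

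**Figure D3:**
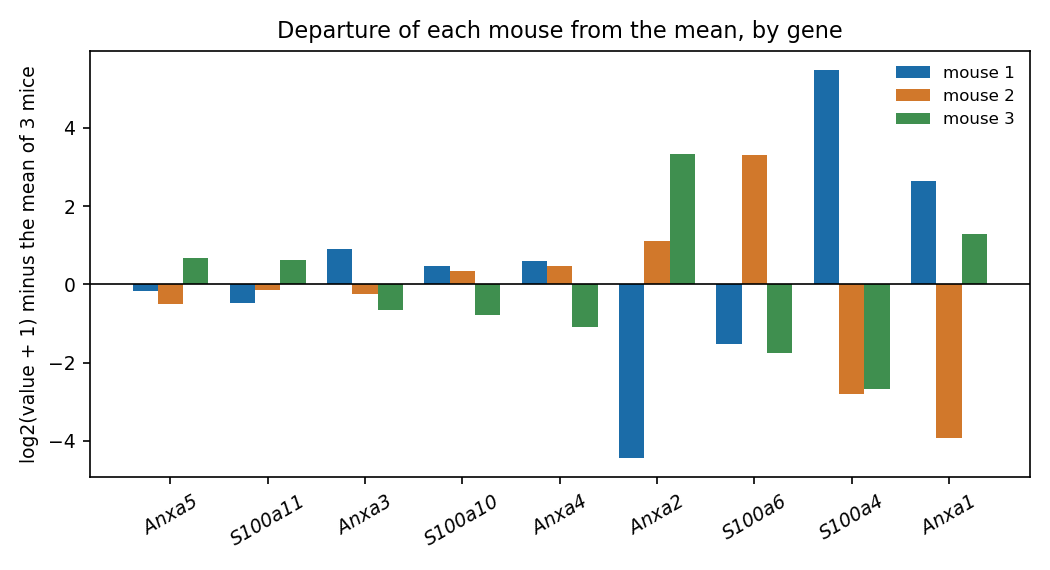
log2(value + 1) of each mouse minus the mean of the 3 mice (vertical axis) for the 9 members with reads; bars are single libraries. Bars stay within about 1 log2 unit for the 5 genes on the left and reach beyond 2 units for the other 4, with a different mouse on top for Anxa2, S100a6 and S100a4.

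**Figure D4:**
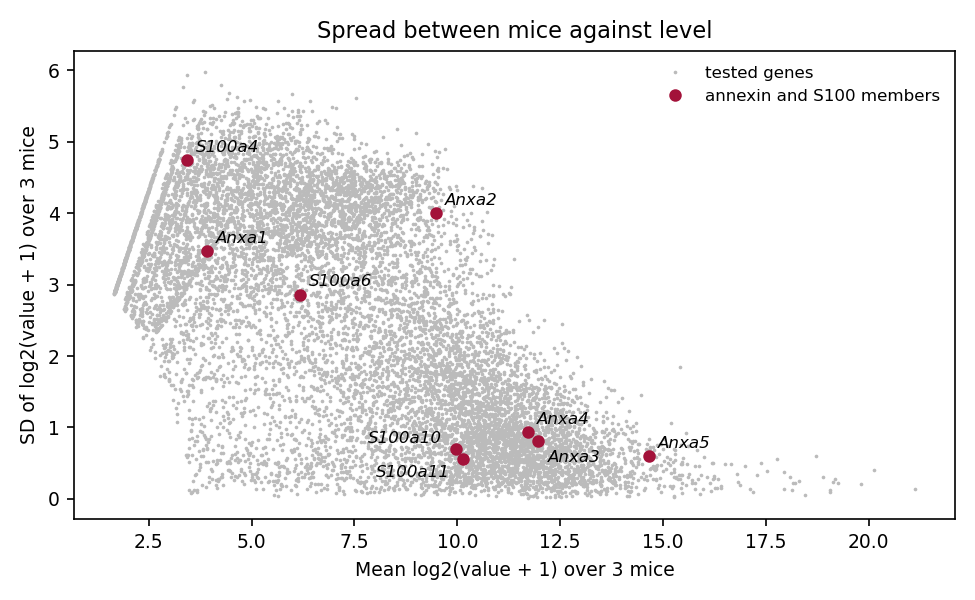
SD over 3 mice (vertical axis) against mean (horizontal axis) of log2(value + 1), for 11603 tested genes (grey) and 9 members (red). Anxa2 lies in the upper part of the cloud for its level, while S100a10 and S100a11 lie in its lower part.

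The S100 and annexin partners were not held at a fixed ratio across the mice. S100a10 per kb exceeded Anxa2 by 7.0 log2 units in mouse 1 and by 1.33 in mouse 2, and was below it in mouse 3 (log2 ratio -2.04). The mean was 2.09 ± 4.57 (SD, n = 3), and the test against Anxa2 over all genes gave an adjusted p of 0.731 (limma). Because S100a10 itself spanned 2.40-fold and Anxa2 226-fold, most of this range came from the Anxa2 values. S100a4 and S100a6 also stood on both sides of Anxa2, with log2 ratios of 6.53, -7.28 and -9.39 for S100a4 and 1.05, 0.35 and -6.96 for S100a6. S100a11 was above Anxa2 in 3 of 3 mice (log2 ratios 7.49, 2.27 and 0.81), with an adjusted p of 0.515 (limma). In this comparison 0 of 11602 genes were called above Anxa2 (0%) and 0 below (0%), and at an unadjusted p under 0.05 there were 161 above and 2028 below. Every gene had the same SE, 2.82, in this fit, so the spread of its own ratio did not enter the test.

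S100a11 exceeded Anxa1 in 3 of 3 mice, by 5.61 log2 units per kb in mouse 1 and by 8.07 in mouse 3. In mouse 2, where Anxa1 had no read, the difference was at least 11.77 log2 units against the floor of 3 reads, and for Anxa5 at least 14.15. The fitted ratios to Anxa1 depend on the pseudocount in that mouse. Against Anxa1, 10.6% of all genes were called higher and 0% lower, and among the members Anxa5 (log2 ratio 11.45 ± 2.79 SE, adjusted p = 0.00494, limma) and S100a11 (8.73 ± 2.79 SE, adjusted p = 0.0302, limma) were called. The error of Anxa1 is shared by every ratio to it, so the p-values are too small. The SE of 2.79 was also the same for every gene in this fit, so the spread of a gene's own ratio did not enter the test. Neither call held without mouse 2 (adjusted p = 0.0861 for both) or without mouse 3 (adjusted p = 0.382 for both), and that of S100a11 was also lost without mouse 1 (adjusted p = 0.0900), without division by exon length (adjusted p = 0.0985) and with the longest transcript as length (adjusted p = 0.0580). With a pseudocount of 0.1 the adjusted p was 0.153 for Anxa5 and 0.197 for S100a11. The lowest and highest adjusted p over 10 alternatives were 2.97e-07 and 0.382 for Anxa5, and 0.000205 and 0.382 for S100a11.

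**Figure D5:**
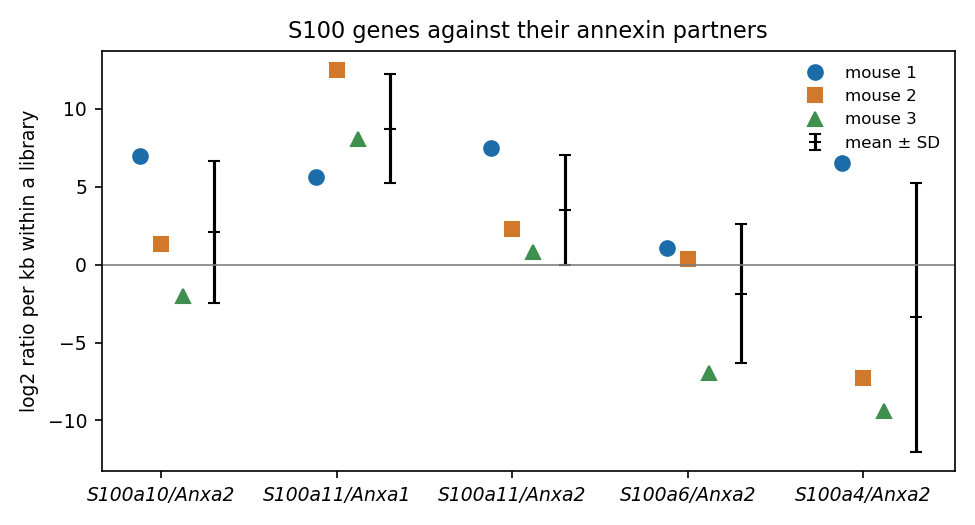
log2 ratio per kb of an S100 gene to an annexin in the same library (vertical axis) for 5 pairs; points are mice, bars are mean ± SD (n = 3). The mouse 2 point of S100a11 over Anxa1 is set by the pseudocount of 1, since Anxa1 had no read there. S100a11 is above Anxa1 and Anxa2 in 3 of 3 mice, and the ratio of S100a4 to Anxa2 spans from 6.53 to -9.39.

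Of the other annexins, 4 of 7 were in the table and 0 were called in either direction. Anxa7, which fuses secretory vesicles, was at 714, 1098 and 5853 normalised reads in mice 1, 2 and 3. Anxa6, an annexin with a doubled core, was at 536, 3.33 and 116, and Anxa9 at 88.7, 325 and 0.705. Anxa11 had no read in any library. Among these only Anxa7 lay above the library median in 3 of 3 mice (log2 difference 1.78 ± 1.06 SE, adjusted p = 0.282, limma).

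Of the other S100 genes, 4 of 11 were in the table, and 0 were called. S100a1, a regulator of calcium handling in muscle that is also made in the kidney, was at 2051, 8034 and 2977 normalised reads in mice 1, 2 and 3. S100g, the calbindin of calcium-transporting epithelia, was at 1022, 5527 and 240. Both were highest in mouse 2, as were the tubule markers given above, whose part in these values was not tested. S100a13, which takes part in the release of growth factors without a signal peptide, was at 1365, 1473 and 2139, the narrowest range among the S100 genes with reads at 1.57-fold. S100a16 was low, at 6.45, 31.1 and 0. S100a1, S100a13 and S100g lay above the library median in 3 of 3 mice (log2 differences 6.03, 4.81 and 4.83). They passed when the spread was taken by level, beside 22.7% of all genes above.

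Receptors, partners and targets of both families were 14 of 17 in the table. Of these, 12 could be tested, and 0 were called. With spread taken by level, 4 were above and 0 below, beside 22.7% of all genes above and 4.32% below. The 4 were Bsg, Tlr4, Pla2g4a and Cacybp, of which Cacybp lay above the library median in only 2 of 3 mice. Bsg, a receptor for secreted S100a9, was at 3700, 6928 and 8153 normalised reads, and Tlr4, another, at 24461, 1993 and 11464, while S100a9 itself was at 0. Pla2g4a, the phospholipase that annexin A1 is known to restrain, was at 5883, 2501 and 4086. The formyl peptide receptor Fpr2, through which Anxa1 acts, was at 14.5, 382 and 4796, and Fpr1 at 1.61, 0 and 781. Both Fpr genes were highest in mouse 3, where Anxa2 was highest too. Plgrkt, another plasminogen receptor, ran the other way, at 9571, 1579 and 19.7. Ahnak, the giant scaffold that the S100a10 and Anxa2 complex binds, lay below the library median in 3 of 3 mice at 20.2, 33.9 and 123 normalised reads (log2 difference -5.16 ± 0.99 SE, adjusted p = 0.0681, limma). S100a6 targets were uneven, with Cacybp at 96.8, 2896 and 5018 and Sugt1 at 4520, 2410 and 95.9.

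Of 13 calcium sensor and membrane repair genes, 10 were in the table and tested, and 0 were called. With spread taken by level, 4 were above and 0 below, Calm2, Pdcd6 and Sri among them, beside 22.7% of all genes above and 4.32% below. Calm2, a calmodulin gene, was at 28120, 28862 and 34257 normalised reads, with 1.22-fold between its highest and lowest mouse. Sri, which encodes sorcin, a partner of annexin A7, was at 14782, 11897 and 6300. The ferlin Myof, a membrane repair protein, was at 1570, 1245 and 3203. Capns1, the small calpain subunit, resembled Anxa2 in being low in mouse 1 only, at 17.7, 2486 and 3238.

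The genes nearest to Anxa5 in level per kb across the 3 libraries, outside all lists used here, were Gt(ROSA)26Sor, Arpc2, a subunit of the actin-nucleating complex, and Ly96, the co-receptor of Tlr4. Their root mean square differences from Anxa5 were 0.22, 0.29 and 0.32 log2 units. The nearest to S100a11 were Smim20 (0.08), Gng10 (0.10) and Npc2 (0.15), the last a lysosomal cholesterol carrier. With 3 libraries many genes can share a pattern, and likeness of level is given as a description.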

How the data were processed

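The samples were 3 libraries of 1 group. The deposited values are normalised counts plus 1, treated as a signal. HTSeq 0.5.4 was used for counting and DESeq 1.18.0 for scaling, on build mm9, per the submitters' processing notes. The aligner and annotation were not given in the sources used here. Per the labels' protocols, kidneys were digested for 30 min, and libraries were made from 10 ng of amplified cDNA with 8 cycles of PCR, without molecular identifiers, so intervals cover counting error only. The lowest deposited value was 1 in each library, and after removal of that 1, 100% of values under 2000 lay within 0.05 steps of a whole number of steps, taking 1 step as the worth of 1 read in that library. Reads were obtained that way. Per kb values used the union of exons in GENCODE M21 by gene identifier, found for 99.6% of genes. That annotation is of another build, so no coordinates are given, and lengths may differ from those counted.

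Levels were tested on log2((value + 1)/kb) of 11603 genes with a mean of 10 or more, minus the library median or a reference gene, by limma 3.58.1 (intercept only, R 4.3.3) with Benjamini-Hochberg adjustment over all genes. S100a9 failed the filter. Neighbouring members were compared by exact sign-flip permutation. Spread was set beside the 500 genes nearest in mean log2 level. The level fit was tested on simulated data of 11603 genes: unadjusted p-values fell under 0.05 for 6.56% of unshifted genes and for 46%, 62%, 92% and 96% of genes shifted by 2, 4, 6 and 8 log2 units, and 0% were called after adjustment at any shift. In the data, 18.8% of genes lay above the library median and 17.2% below it at an unadjusted p under 0.05 (limma). The cause of the low call counts in the data was not tested. The members and lists were chosen with earlier results of these data known. The genes named are the members, all other listed annexins and S100 genes, up to 4 highest and lowest of the partner and calcium lists, and the 3 nearest in level to the highest annexin and S100 member. Capns1, Plgrkt, Pla2g4a, Fpr1, Sugt1 and the cell type markers were named after their values were seen. List genes outside the table are not analysed here, and 1 listed gene is counted but not reported by name. Python 3.11.15 with numpy 2.4.6, pandas 2.3.3 and matplotlib 3.10.9 was used. Alternatives covered the pseudocount, filter, length, centre, spread model and each mouse left out. Those for neighbouring members were chosen after seeing the data.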

Additional observations from a re-analysis of the deposited data

How the results depend on the processing

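Counts of calls shifted with the pseudocount, the filter, the centre and the model of spread. Against the library median, the test called 0 genes above and 0 below. With a pseudocount of 10 it called 1538 above, 1000 below and 4 members above; without a filter, 3061, 3059 and 5, with 1 member below (S100a9, tested only there); with the mean log2 as centre, 631, 26 and 1; and with spread by level, 2630, 501 and 5. Above Anxa2, 11 genes were called with a pseudocount of 10 and 58 without a filter, where 2956 lay below. Leaving out a mouse gave 0 to 28 above, 0 to 3571 below and 0 to 2 members below. Above Anxa1, where the main counts were 1225 genes and 2 members, there were 21 and 0 with a pseudocount of 0.1, 3393 and 5 with one of 10 (2 genes below), 1929 and 5 at a mean of 100 or more, 739 and 1 by longest transcript, 2170 and 5 with spread by level, and 0 to 97 and 0 to 1 with a mouse left out. Without a filter 1 gene was below Anxa1. The cause of these shifts was not tested.

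Some directions turned with the setting or with a mouse left out. S100a6 against the median was 1.24 without a filter and 0.062 with the mean as centre. Without each mouse in turn, log2 differences from the median ran from -2.13 to 0.23 for S100a6 and from -0.47 to 3.40 for Anxa2. Ratios to Anxa2 ran from -0.17 to 4.50 for Anxa3, -0.60 to 4.13 for Anxa4, -3.31 to 0.70 for S100a6 and -0.36 to 4.16 for S100a10, and that of S100a6 to Anxa1 from -0.26 to 5.44. For neighbours, Anxa2 over S100a6 ran from -0.70 to 3.31 and S100a6 over S100a4 from -1.53 to 5.03. Without division by length, S100a10 over Anxa4 was -1.76, S100a11 over Anxa3 -1.81 (-0.17 by longest transcript) and S100a4 over Anxa1 -0.49. Anxa1 over S100a9 was -0.62 with a pseudocount of 10. At 1 read in 2 libraries (S100a4) or 0 (S100a9), depth limits what can be said of level.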
